A study of Mus musculus with 8 samples.

Results

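Lymphocyte antigen 6 (Ly6) proteins and Thy1 are small proteins held on the cell surface by a glycosylphosphatidylinositol (GPI) lipid anchor, and antibodies to them are widely used to sort mouse blood cells. Transcripts of 9 such genes were followed in 4 lines of stimulated EL4 cells: Ly6a, Ly6c1, Ly6c2, Ly6e, Ly6d, Ly6g, Ly6k, Ly6i and Thy1. They were taken by gene symbol from 54146 genes in the files, and the set was chosen by the level of Ly6a in these libraries, which was higher with either transcription factor than in the control. EL4 is a mouse T lymphoma line that expresses its own Gata3 but not T-bet, as the study describes it. All lines were transduced with retroviruses and stimulated for 4 h with PMA, a phorbol ester, at 50 ng/ml and ionomycin, a calcium ionophore, at 1 µM. The GFP + Plum line carried 2 fluorescent proteins as the control, T-bet + Plum carried FLAG-T-bet, GFP + GATA3 carried HA-GATA3, and T-bet + GATA3 carried both factors. The latter 3 are also called the lines with T-bet alone, GATA3 alone and both. T-bet is the lineage-determining factor of TH1 cells and GATA3 that of TH2 cells. Each line gave 2 libraries (8 in all), described by the study as harvests of 1 transduced line on different days, so the error between them does not cover differences between independently made lines. In such bulk RNA, fewer cells that express a gene and less RNA per cell cannot be told apart.

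Most Ly6 proteins share a compact cysteine-rich fold, the Ly6/uPAR domain, whereas Thy1 belongs to the immunoglobulin superfamily. Ly6a encodes Sca-1, a marker of mouse blood stem and progenitor cells that activated T cells also carry and that interferons induce. Ly6c1 and Ly6c2 encode the Ly6C antigens of monocytes and some T cells, Ly6g encodes the Ly6G antigen of neutrophils, and Ly6d marks early steps of B cell development. Thy1, also called CD90, is a classical marker of mouse T cells.

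Of the 9 genes, 8 lie in 1 cluster on chromosome 15 (GRCm38, Gencode M21). Ly6a is at 74994877 to 74998031 on the minus strand, Ly6e at 74955051 to 74959905 on the plus strand, Ly6i at 74979534 to 74983430, Ly6c1 at 75044018 to 75048830 and Ly6c2 at 75108158 to 75111970 on the minus strand, and Ly6g at 75155240 to 75159126 on the plus strand. Ly6d, at 74762056 to 74763620, and Ly6k, at 74796874 to 74799986, are both on the minus strand. Thy1 is on the plus strand of chromosome 9, at 44043384 to 44048579.

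Several of these genes are near copies of one another (Ly6a, Ly6c1, Ly6c2, Ly6i and Ly6g), and their reads can be told apart only where the sequences differ. The coding sequences of Ly6c1 and Ly6c2 differed at 9 of 396 bases, with a longest identical run of 188 bases. The first 120 coding bases, the in-frame stretch of this length with the most differences (6 of the 9), are shown here from Gencode M21 to make clear how little separates them. Capitals mark the bases that differ.

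Ly6c1: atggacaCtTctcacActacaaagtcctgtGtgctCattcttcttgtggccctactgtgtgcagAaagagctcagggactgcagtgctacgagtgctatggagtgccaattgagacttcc

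Ly6c2: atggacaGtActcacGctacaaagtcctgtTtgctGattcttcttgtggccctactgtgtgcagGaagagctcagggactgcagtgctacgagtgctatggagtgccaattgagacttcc

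By contrast, Ly6a differed from Ly6i, the relative nearest to it in coding sequence among the 9 genes, at 55 of 405 coding bases. Coding bases 169 to 288, counted from the start codon, are the in-frame stretch of this length with the most differences (38 of 120), again in capitals.

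Ly6a: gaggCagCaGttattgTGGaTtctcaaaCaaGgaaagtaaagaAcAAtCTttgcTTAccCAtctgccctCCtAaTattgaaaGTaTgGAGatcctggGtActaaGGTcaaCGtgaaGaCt

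Ly6i: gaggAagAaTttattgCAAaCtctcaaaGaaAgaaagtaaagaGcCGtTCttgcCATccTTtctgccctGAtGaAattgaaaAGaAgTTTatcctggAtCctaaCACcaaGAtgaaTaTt

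The authors used kallisto, which by default assigns fragments through 31-base words. Of the distinct words in Ly6a transcripts, 68.1% occurred in no other gene of Gencode M21, 21.9% also occurred in Ly6c1 and 8.42% in Ly6i. The share particular to the gene was 53.2% for Ly6c1, 76.2% for Ly6c2 (which shares a word with 2774 other genes), 80.8% for Ly6i and 90.5% for Ly6g. It was 99.6% for Ly6e and 98.7% for Thy1. Counts of Ly6e and Thy1 therefore rested almost wholly on their own sequence, while those of Ly6c1 and Ly6c2 depended on how shared fragments were divided.

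**Figure D1:**
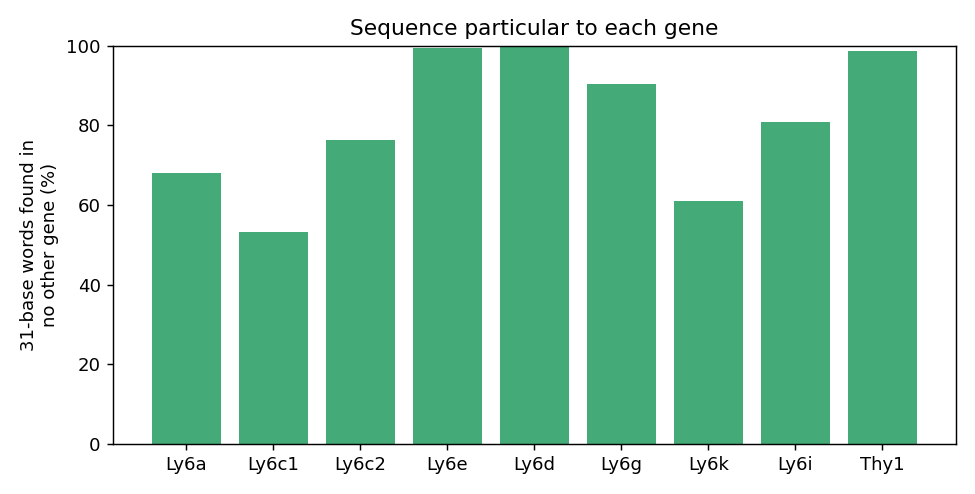
Bars give, for each of the 9 genes, the percentage of distinct 31-base words in its transcripts that occur in no other gene. Ly6c1 has the lowest share (53.2%), Ly6a has 68.1%, and Ly6e and Thy1 are near 100%. The words of Ly6c2 include those of a long retained-intron transcript.

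Promoter sequence from RefSeq (GRCm38.p6) was at hand for 3 of the 9 genes, Ly6c1, Ly6c2 and Ly6g. The windows run from 250 bases before the start site to 50 bases after it. They are shown for the Ly6c pair because these genes had different patterns across the lines, at low counts, as described further on. A link between promoter sequence and these patterns was not tested. In contrast to the coding sequence, 208 of 266 aligned promoter bases were identical (78.2%), with 68 gap positions. Part of these gaps lie at the ends, because the windows start at different places in the shared sequence. Unpaired bases there do not show that the promoters differ. Both windows are on the minus strand, Ly6c1 at chr15:75048788-75049087 and Ly6c2 at chr15:75111922-75112221, and capitals mark bases that differ or have no partner in the alignment.

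Ly6c1 promoter: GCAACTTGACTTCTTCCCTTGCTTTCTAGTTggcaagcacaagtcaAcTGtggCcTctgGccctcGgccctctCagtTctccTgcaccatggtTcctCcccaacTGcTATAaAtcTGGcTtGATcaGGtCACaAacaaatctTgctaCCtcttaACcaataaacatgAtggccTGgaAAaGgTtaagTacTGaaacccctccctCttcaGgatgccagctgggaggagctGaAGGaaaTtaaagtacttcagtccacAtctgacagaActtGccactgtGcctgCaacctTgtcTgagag

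Ly6c2 promoter: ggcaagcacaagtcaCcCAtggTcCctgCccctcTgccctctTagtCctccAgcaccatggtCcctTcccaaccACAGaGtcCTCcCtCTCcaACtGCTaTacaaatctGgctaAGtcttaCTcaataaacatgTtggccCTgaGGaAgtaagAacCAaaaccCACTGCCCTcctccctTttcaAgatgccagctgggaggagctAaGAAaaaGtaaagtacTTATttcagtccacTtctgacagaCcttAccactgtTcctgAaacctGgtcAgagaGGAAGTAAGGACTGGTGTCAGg

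Both strands were searched for AGATAA, a word that GATA factors bind, its variant TGATAA, the T-box core TCACAC, the longer T-box word AGGTGTGA, which holds that core on the opposite strand, the interferon-gamma activated word TTCNNNGAA and the interferon-stimulated core GAAANNGA. Neither window held any of them. Over all 32851 RefSeq windows of this length the shares with a match were 11.2%, 9.05%, 14.5%, 1.28%, 8.30% and 21.0%, in that order. The Ly6g windows held none either, and a second start site listed for Ly6c1 had TCACAC on its minus strand from -111 to -106.

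The library totals were 8038565 to 16003519 estimated counts, and the lower 3 were all replicate 1 libraries. Levels are given as CPM, counts scaled to library sizes with TMM factors, to compare libraries, or as TPM, which also allows for transcript length, to compare genes. A floor of 3 counts, the limit that a count of 0 allows, was 0.186 to 0.373 CPM per library, and covers counting error only. Tbx21, which encodes T-bet, was at 128.7 to 160.1 CPM in libraries of the 2 lines that carry it and at 1.78 to 3.59 CPM elsewhere. Gata3 was at 283.2 and 325.6 CPM in GFP + GATA3, at 203.7 and 164.9 CPM in T-bet + GATA3, and at 25.8 to 53.3 CPM without HA-GATA3. The 2 lines with HA-GATA3 thus did not have equal levels of Gata3. Of 11 T cell markers, 10 reached 1 TPM in every line (Cd247 did not), and their summed TPM was 2555 to 3327 in GFP + Plum, 2819 to 2987 in GFP + GATA3, 3682 to 4122 in T-bet + Plum and 3583 to 3742 in T-bet + GATA3. The 9 neutrophil and monocyte markers summed to at most 0.937 TPM in any library, with S100a8, S100a9 and Elane at 0 throughout, and no marker of B cells, fibroblasts, epithelium or erythroid cells reached 1 TPM.

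Ly6a, the gene that the set was chosen by, differed between all 4 lines. It was at 1.84 and 1.77 CPM in the control libraries, 10.2 and 11.2 CPM with GATA3 alone, 31.2 and 42.9 CPM with T-bet alone, and 123.1 and 97.2 CPM with both. The libraries of the 4 lines did not overlap, and the order ran from the control through GATA3 alone and T-bet alone to both. The estimated counts behind these levels were 29.8 and 27.9 in the control, 106.2 and 176.1 with GATA3 alone, 251 and 627 with T-bet alone, and 1139 and 1462 with both. In TPM, Ly6a went from rank 8948 among protein-coding genes in the control to rank 577 in T-bet + GATA3, where its mean was 141.4 ± 10.6 TPM (SD, n = 2).

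Against the control line, the mean Ly6a level in CPM was 20.5 times as high with T-bet, 5.90 times as high with GATA3 and 60.9 times as high with both. These comparisons chose the gene and are descriptions without a test. On the log2 scale the fitted fold changes were 4.35 (SE 0.23), 2.55 (SE 0.24) and 5.91 (SE 0.24). The mean with both factors, 110.2 CPM, was above the 45.9 CPM that adding the separate rises to the control level would give and below the 218.6 CPM that multiplying the separate folds would give. Ly6a made up 0.466% to 0.759% of the summed TPM of the 9 genes in the control libraries, 3.13% and 3.36% with GATA3 alone, 9.51% and 10.2% with T-bet alone, and 19.0% and 27.9% with both.

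**Figure D2:**
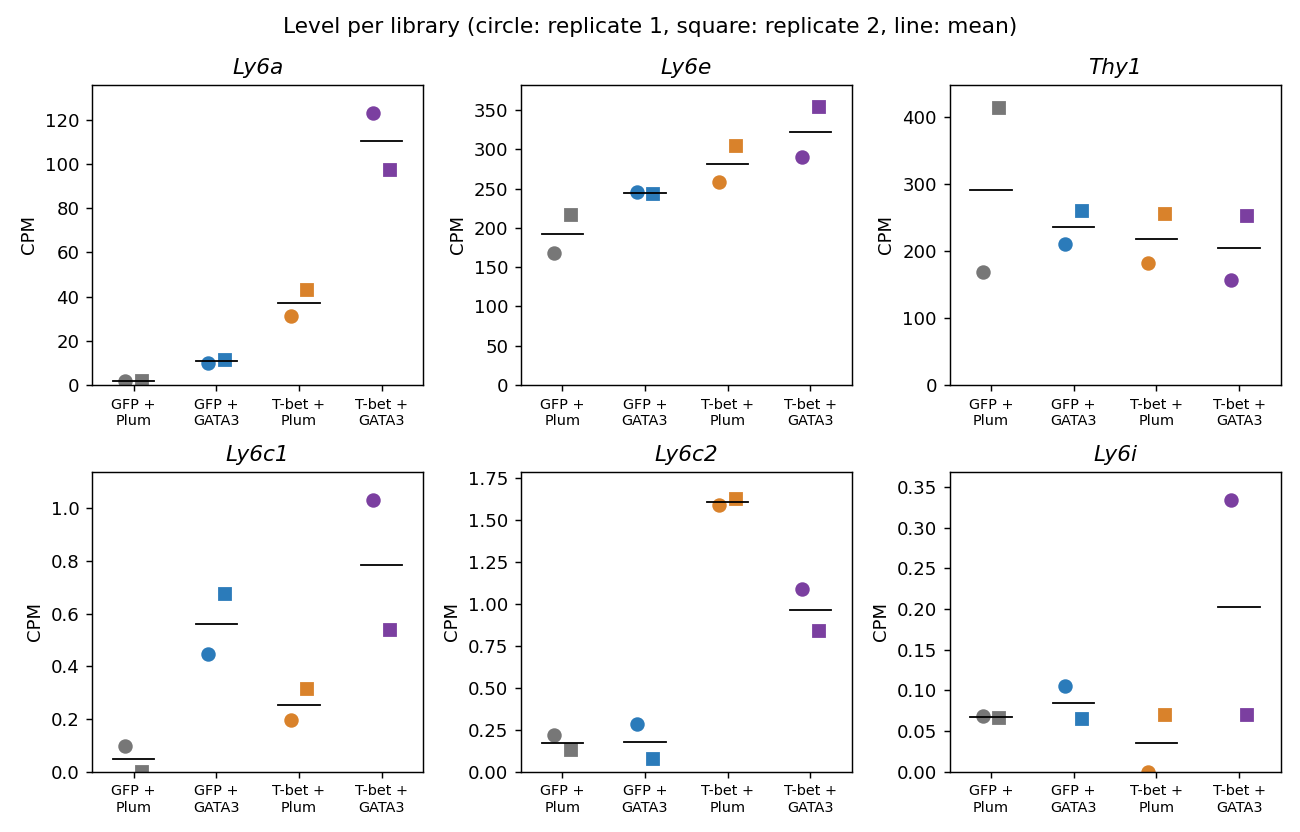
Each panel plots the level of a gene in CPM in each line, with a circle for replicate 1, a square for replicate 2 and a line at the mean. Ly6a libraries rise in steps from 1.77 CPM to 123.1 CPM, Ly6e lies within 168.3 to 354.5 CPM, and Ly6c1, Ly6c2 and Ly6i stay below 2 CPM.

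The line with both factors was then compared with each line that had a single factor, which asks what T-bet added where GATA3 was present and what GATA3 added where T-bet was present. Gata3 was lower in T-bet + GATA3 than in GFP + GATA3, and the part of this inequality in the differences was not tested. The tests used edgeR quasi-likelihood over 14791 genes, and a gene was called at an FDR (the Benjamini-Hochberg adjusted p) of at most 0.05 with a log2 fold change above 1.5 in size. The single-factor libraries had also entered the choice of Ly6a, so these tests are not independent of it. In the first comparison 5 of the 9 genes passed the filter on low counts and 1, Ly6a, was called as higher, beside 1.99% of all genes called up and 0.859% called down, and 3 of the 5 had an unadjusted p under 0.05. In the second none of the 5 was called by edgeR, beside 0.0203% called up and 0.0135% called down. However, 1 (Ly6a) had an unadjusted p under 0.05 and was called by DESeq2. Over all 14791 genes tested, 2897 had an unadjusted p under 0.05 in the first comparison and 559 in the second.

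For Ly6a, the level in T-bet + GATA3 was 10.3 times that in GFP + GATA3, with library ratios of 8.71 to 12.1 (log2 FC 3.37, SE 0.20, FDR 0.000107). It was 2.97 times that in T-bet + Plum, with library ratios of 2.27 to 3.94 (log2 FC 1.56, SE 0.19). The second difference was larger than the spread between replicates in all library pairs but had an edgeR FDR of 0.0708, and the alternatives gave 1.07e-12 to 0.575. DESeq2 gave an FDR of 5.46e-08 and edgeR without the filter 1.07e-12, and both called it.

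**Figure D3:**
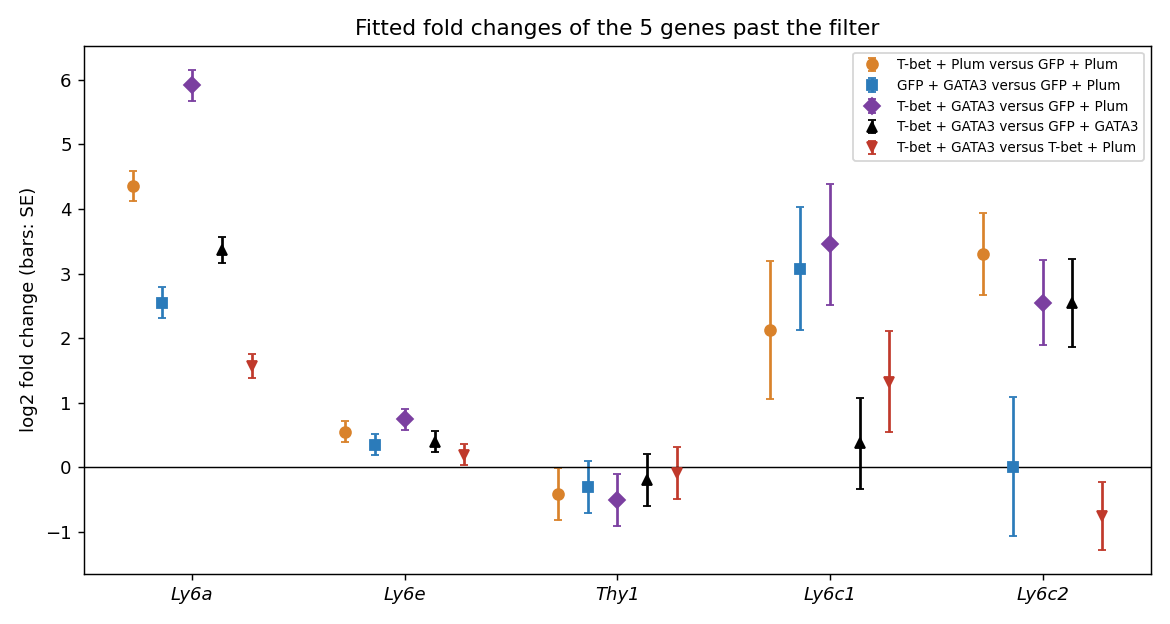
Points give fitted log2 fold changes of the 5 genes past the filter, and bars their standard errors. Circles, squares and diamonds are comparisons with GFP + Plum, which are descriptions, and triangles the 2 tested comparisons, in which Ly6a stands at 3.37 and 1.56.

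The Ly6a signal came mainly from the 819-base transcript Ly6a-201. This transcript held 36.5% and 76.8% of Ly6a counts in the 2 control libraries, 59.4% and 91.8% with GATA3 alone, 81.9% and 61.7% with T-bet alone, and 63.7% and 72.0% with both. These shares overlapped between the lines. Ly6a-204, of 955 bases, held 12.5% to 63.5% in 7 libraries and no counts in GFP + GATA3 replicate 2. The transcripts overlap in sequence, so these shares are estimates that kallisto made from the fragments that differ.

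**Figure D4:**
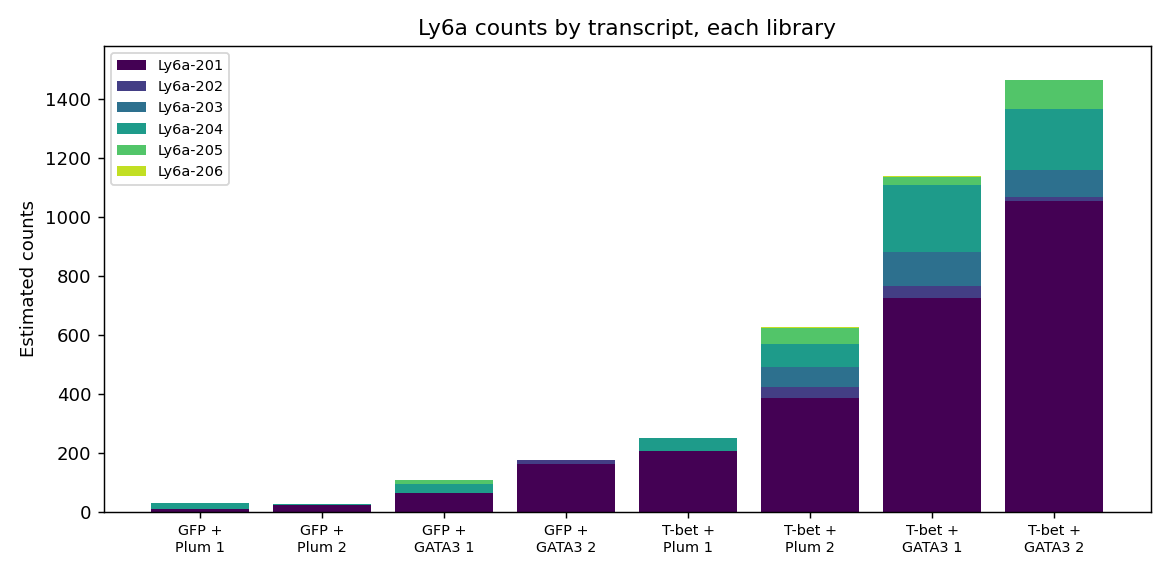
Stacked bars give the estimated counts of Ly6a in each library, divided among its 6 annotated transcripts. Ly6a-201 is the largest part in 7 of the 8 libraries, reaching 1053.5 counts in T-bet + GATA3 replicate 2.

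Ly6e, an interferon-inducible family member found on many cell types, was high in every library. It was at 168.3 and 216.7 CPM in the control libraries, 245.9 and 243.3 CPM with GATA3 alone, 258.6 and 304.6 CPM with T-bet alone, and 290.0 and 354.5 CPM with both. The line means followed the same order as those of Ly6a, with the mean in T-bet + GATA3 1.67 times that of the control, and the libraries of T-bet + Plum and T-bet + GATA3 overlapped. In TPM it ranked between 230 and 356 among protein-coding genes, so Ly6e was above Ly6a even where Ly6a was highest (346.3 against 141.4 TPM).

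Ly6e did not pass the test in either comparison. Its level in T-bet + GATA3 was 1.32 times that in GFP + GATA3 (log2 FC 0.40, SE 0.16, edgeR FDR 0.230) and 1.14 times that in T-bet + Plum (log2 FC 0.19, SE 0.16, edgeR FDR 1.00). Against the control the fitted log2 fold changes, without a test, were 0.55 with T-bet, 0.35 with GATA3 and 0.74 with both.

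Thy1 was also among the more abundant transcripts, ranking between 449 and 642. It was at 168.4 and 413.3 CPM in the control libraries, 210.8 and 260.2 CPM with GATA3 alone, 181.9 and 254.7 CPM with T-bet alone, and 157.2 and 252.0 CPM with both. In each line replicate 2 was higher, and the 4 lines overlapped. Replicate 2 also had the larger total of counts in each line, but the 2 control totals were close, at 15385166 and 16003519. The control line had the widest gap, and of the other 6 libraries 5 lay between its 2, with T-bet + GATA3 replicate 1 just below them.

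Thy1 was 0.869 times as high in T-bet + GATA3 as in GFP + GATA3 (log2 FC -0.20, SE 0.40, edgeR FDR 0.845) and 0.937 times as high as in T-bet + Plum (log2 FC -0.09, SE 0.40, edgeR FDR 1.00), so neither difference passed the test. The approximate 95% interval of the log2 fold change was -0.99 to 0.58 in the first comparison and -0.88 to 0.69 in the second, which is wide. Against the control, the fitted values of -0.41 with T-bet, -0.30 with GATA3 and -0.51 with both turned to 0.38, 0.49 and 0.29 when control replicate 2 was left out.

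Ly6c2 was scarce and higher where T-bet was present. It had 3.49 and 2.0 counts in the control, 2.97 and 1.19 with GATA3 alone, 12.7 and 23.7 with T-bet alone, and 10.0 and 12.6 with both. All 4 libraries with T-bet lay above all 4 without it, at 0.835 to 1.62 CPM against 0.0756 to 0.284 CPM, and 3 of the latter 4 libraries had fewer than 3 counts. Neutrophils and monocytes also carry Ly6 antigens. Their 9 markers summed to 0.742 to 0.937 TPM in the control and 0.756 to 0.819 with GATA3 alone. The sums were 0.492 to 0.679 TPM with T-bet alone and 0.246 to 0.354 with both. These sums are low in every line, and whether such cells added to the Ly6c2 counts was not tested. With 23 against 4 summed counts, the ratio of T-bet + GATA3 to GFP + GATA3 was 6.21, with a counting interval (exact Clopper-Pearson, 95%) of 2.12 to 24.7 (log2 FC 2.54, SE 0.68). This comparison had an edgeR FDR of 0.0752 and was not called, while the alternatives gave 0.0217 (edgeR without the filter, which called it) to 0.448 (without GFP + GATA3 replicate 2), with 0.231 for DESeq2. The log2 FC was 1.71 without GFP + GATA3 replicate 2 and 3.74 without replicate 1 of that line. Against T-bet + Plum the ratio was 0.596, with an interval of 0.337 to 1.03 (log2 FC -0.75, SE 0.52, edgeR FDR 1.00), although both T-bet + Plum libraries were above both of T-bet + GATA3.

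Ly6c1, its near copy, had another pattern at equally low counts. It had 1.60 and 0 counts in the control, 4.68 and 10.6 with GATA3 alone, 1.57 and 4.61 with T-bet alone, and 9.55 and 8.11 with both. The 4 libraries with HA-GATA3 (0.448 to 1.03 CPM) were all above the 4 without it (0 to 0.315 CPM). Without HA-GATA3, only T-bet + Plum replicate 2 was above the floor of 3 counts. That floor was 0.373 CPM in T-bet + Plum replicate 1, close to the lowest level with HA-GATA3. In T-bet + GATA3 against T-bet + Plum the ratio of summed counts was 2.80, with a counting interval of 1.06 to 8.62 (log2 FC 1.33, SE 0.79, edgeR FDR 1.00), and against GFP + GATA3 it was 1.30, with an interval of 0.617 to 2.76 (log2 FC 0.37, SE 0.70, edgeR FDR 0.836). Neither passed the test.

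Since fragments of the pair are hard to assign, the counts of Ly6c1 and Ly6c2 were also summed. The sum was 7 counts in the control, 19 with GATA3 alone, 43 with T-bet alone and 40 with both. T-bet + GATA3 was 2.27 times GFP + GATA3, with a counting interval of 1.29 to 4.16 (log2 FC 1.19, SE 0.47, edgeR FDR 0.210), and 0.868 times T-bet + Plum, with an interval of 0.550 to 1.37 (log2 FC -0.07, edgeR FDR 1.00). Neither difference was called. Ly6a, which shares 31-base words with both genes, had 58, 282, 878 and 2601 summed counts in these lines. The part of Ly6a fragments in the Ly6c1 and Ly6c2 counts was not tested. The pseudogene I830127L07Rik, described further on, also shares such words with both genes, and its part was likewise not tested.

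The other 4 genes did not pass the filter on low counts. Ly6i had at most 3.10 estimated counts in any library, the highest being T-bet + GATA3 replicate 1. Ly6g had 1.00 count in GFP + GATA3 replicate 2 and in T-bet + GATA3 replicate 1 and 0 in the other libraries. Ly6d and Ly6k, the latter known mainly from testis, had 0 counts in all 8 libraries. At this depth no difference between lines was detectable for these genes, and no fold is given.

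On chromosome 15, 52 genes of the files start within 500 kb of the Ly6a start, 44 of them outside the set of 9. Of these 44, 6 passed the filter. In T-bet + GATA3 against GFP + GATA3, 1 of the 6 was called up and none down, beside 1.99% and 0.859% of all genes. An unadjusted p under 0.05 was found for 3 of the 6, beside 2897 of all 14791 genes tested. The median log2 FC of the 6 was 0.37 beside 0.01 over all genes tested. In T-bet + GATA3 against T-bet + Plum none was called by edgeR or DESeq2 or had an unadjusted p under 0.05, and the median was -0.002. Over all genes tested, edgeR called 0.0203% up and 0.0135% down in that comparison, 559 had an unadjusted p under 0.05, and the median was 0.001.

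The called neighbour was the pseudogene I830127L07Rik, 136.5 kb from Ly6a and named RP23-458B6.6 in the files. It had 0 counts in each control library, 0 and 1.03 with GATA3 alone, 29.7 and 71.7 with T-bet alone, and 26.7 and 54.9 with both. The libraries with T-bet were thus all far above those without it. With 82 against 1 summed counts, the ratio of T-bet + GATA3 to GFP + GATA3 was 88.5, with a counting interval of 15.4 to 3539 (edgeR FDR 0.00365). The pseudogene and Ly6a share 55 31-base words, 4.37% of those of Ly6a. It shares 41 with Ly6c2 and 26 with Ly6c1, 1.51% and 1.48% of the words of those genes. The part of its fragments in the counts of Ly6c2, also higher where T-bet was present, was not tested.

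**Figure D5:**
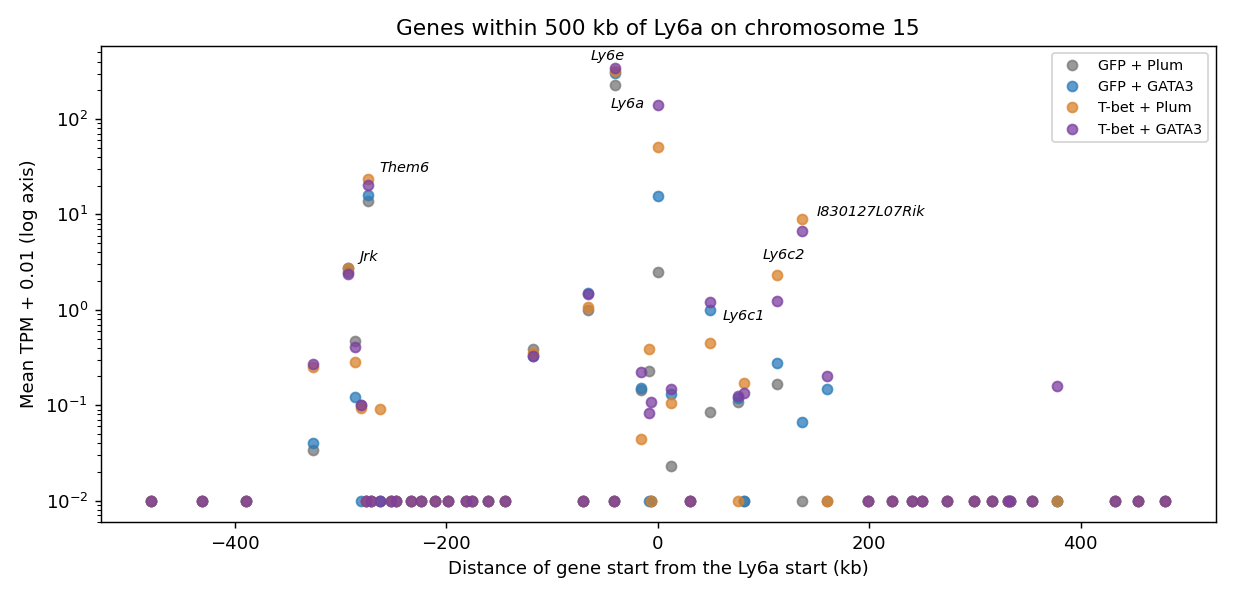
Points give the mean TPM (plus 0.01, log axis) of each gene within 500 kb of Ly6a in the 4 lines, by the distance of its start from that of Ly6a. Ly6a spans 2.46 to 141.4 TPM, while Ly6e beside it spans 229.1 to 346.3 TPM, and I830127L07Rik stands out in the 2 lines with T-bet.

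Across the 8 libraries, the protein-coding genes whose log2 CPM was most like that of Ly6a were Gzma, which encodes granzyme A, a protease of cytotoxic lymphocytes (Pearson r = 0.983), Tbrg1 (0.982), Tnfrsf8, which encodes the surface receptor CD30 (0.977), RP23-316L10.3 (0.976) and Isg20, an interferon-induced exonuclease (0.976). The libraries share 4 lines, and these values are a description over 8 points. Gzma came closest in range, with line means of 37.9, 77.2, 148.3 and 343.8 CPM in the order given for Ly6a, whereas Tbrg1 went only from 85.5 to 109.3 CPM. Of the set, Ly6e had r = 0.899 with Ly6a, Ly6c2 0.779, Ly6c1 0.771 and Thy1 -0.36. Among 11063 protein-coding genes these ranked 159, 911, 962 and 7475, in that order.

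Other members of the Ly6/uPAR family were little expressed. Of 39 listed genes 32 were in the files and 5 passed the filter, and edgeR called none in either comparison, with 0 and 2 at an unadjusted p under 0.05 and none by DESeq2. Over all 14791 genes tested, edgeR called 1.99% up and 0.859% down in the first comparison and 0.0203% and 0.0135% in the second. Of all genes, 2897 and 559 had an unadjusted p under 0.05, so an absence of calls among 5 genes says little. The highest by TPM were Plaur and Ly6g6c. Plaur, the urokinase receptor, was at 17.2 and 27.9 CPM in the control, 16.7 and 18.6 CPM with GATA3 alone, 16.1 and 19.2 CPM with T-bet alone, and 12.4 and 15.2 CPM with both. Ly6g6c was at 0.992 and 0.762 CPM, 6.41 and 10.3 CPM, 2.61 and 7.04 CPM, and 14.7 and 9.71 CPM in the same order of lines, so that all libraries carrying a factor were above the control. Its tested log2 fold changes were 0.53 (SE 0.44, edgeR FDR 0.574) against GFP + GATA3 and 1.28 (SE 0.45, edgeR FDR 1.00) against T-bet + Plum. Ly6g5b, another of the family at low levels, went the other way against T-bet + Plum (log2 FC -1.13, SE 0.47).

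Among other GPI-anchored surface proteins, 10 of 33 in the files passed the filter. In T-bet + GATA3 against GFP + GATA3, 3 were called up and none down, beside 1.99% and 0.859% of all genes. An unadjusted p under 0.05 was found for 7 of the 10, beside 2897 of all 14791 genes tested. The median log2 FC of the 10 was 0.54 beside 0.01 over all genes tested. Cd160, a receptor of natural killer and cytotoxic T cells, was at 5.46 and 6.66 CPM with GATA3 alone and 181.9 and 110.9 CPM with both (log2 FC 4.58, SE 0.29, edgeR FDR 0.000129). Cd52, a short lymphocyte glycoprotein, was at 2.58 and 3.04 CPM against 26.1 and 22.2 CPM (log2 FC 3.08, SE 0.33, edgeR FDR 0.00176). Izumo1r, the folate receptor 4 of regulatory T cells, was at 3.54 and 4.50 CPM against 13.9 and 16.4 CPM (log2 FC 1.90, SE 0.36, edgeR FDR 0.0199). The line means of these 3 genes in T-bet + Plum were 129.8, 31.7 and 13.9 CPM beside 146.4, 24.1 and 15.2 CPM in T-bet + GATA3, and none of the 10 genes was called in that comparison by edgeR or DESeq2 or had an unadjusted p under 0.05. Over all 14791 genes tested, edgeR called 0.0203% up and 0.0135% down there, and 559 had an unadjusted p under 0.05.

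Genes for the enzymes that build the GPI anchor and attach it to proteins were not called. Of 30 listed, 27 passed the filter and none was called in either comparison by edgeR or DESeq2, with 2 and 1 at an unadjusted p under 0.05. Over all 14791 genes tested, edgeR called 1.99% up and 0.859% down in the first comparison and 0.0203% and 0.0135% in the second. Of all genes, 2897 and 559 had an unadjusted p under 0.05. With such shares, an absence of calls among 27 genes says little about these genes. The median log2 FC of the 27 was 0.04 against GFP + GATA3 and -0.08 against T-bet + Plum, beside 0.01 and 0.001 over all genes tested. The highest by TPM, with a mean of 54.6 over the libraries, was Pigx, a subunit of the first mannosyltransferase, which had line means of 31.5, 26.4, 42.9 and 37.0 CPM in the control, with GATA3 alone, with T-bet alone and with both. Pigq, the next by TPM (51.9) and a subunit of the enzyme that starts anchor synthesis, had 92.5, 87.3, 82.8 and 87.9 CPM.

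Since Ly6a and Ly6e are known as interferon-inducible, genes of the interferon response were listed beside them. This list was chosen with earlier results of these data known, so its counts are not independent of them. Of 40 genes 38 passed the filter. In T-bet + GATA3 against GFP + GATA3, 13 were called up and none down, beside 1.99% and 0.859% of all genes. An unadjusted p under 0.05 was found for 28 of the 38, beside 2897 of all 14791 genes tested. The median log2 FC of the 38 was 1.27 beside 0.01 over all genes tested. The number called up was 5 when at least 10 counts were required in every library and 8 without replicate 1 of either line. The 4 with the largest fitted changes were the interferon-induced GTPase genes Tgtp1, Ifi47, Iigp1 and Gbp2. Tgtp1 was at 7.86 and 9.89 CPM in T-bet + GATA3, and Ifi47 at 7.46 and 9.11 CPM, and as both had 0 whole counts in GFP + GATA3 they were at least 79.5-fold and 74.1-fold higher, over a floor of 3 counts for the line. Tgtp1 has a near-identical copy, Tgtp2, so its own counts are uncertain. Iigp1 was at 0.287 and 0.127 CPM with GATA3 alone and 23.6 and 36.9 CPM with both, and Gbp2 at 0.479 and 0.634 CPM against 49.9 and 61.0 CPM. In T-bet + GATA3 against T-bet + Plum the median log2 FC was 0.37 beside 0.001 over all genes tested. Here edgeR and DESeq2 called none of the 38 (2 without the filter on low counts), beside 0.0203% of all genes called up and 0.0135% called down by edgeR. For 5 of the 38 the unadjusted p was under 0.05, beside 559 of all 14791 genes tested. The line means of Iigp1 and Gbp2 in T-bet + Plum were 18.7 and 26.0 CPM, beside 30.2 and 55.4 CPM in T-bet + GATA3.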

How the data were processed

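RNA-seq libraries of 4 stimulated EL4 lines were analysed, with 2 libraries per line. Paired-end reads were filtered with FastQC and Trim Galore and quantified by the authors with kallisto. The deposited values are estimated counts per transcript, which are not normalized, TPM, which are scaled to a fixed total per library, and effective lengths, with no libraries pooled. The methods and the labels of the deposited files name different Gencode releases (on mouse build GRCm38), and the methods describe poly-A selection with a library kit for small RNAs, while the labels add depletion of ribosomal RNA. The study gives another number of replicates than the 2 per line analysed here.

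Estimated counts were summed per gene by the symbol and gene identifier in the deposited names, and rounded. edgeR 4.0.16 (R 4.3.3) was used with TMM, filterByExpr and 1 quasi-likelihood fit of all 8 libraries, leaving 4 residual degrees of freedom. p-values were adjusted over all 14791 genes tested (Benjamini-Hochberg). Standard errors are the log2 FC divided by the root of F. Only T-bet + GATA3 versus each single-factor line was tested. CPM used TMM-scaled sizes, and log2 CPM for likeness a prior count of 2. The members and gene lists were chosen with earlier results of these data known, and the list genes named were those called (at most 4 by size) or, with fewer than 2 called, the 2 highest by TPM. Alternatives were DESeq2 1.42.0, other scaling and filters, transcript length offsets, the contrast's libraries alone, a replicate block, each library left out, FDR alone and log2(TPM + 1). All gene and transcript versions of the members matched Gencode M21 in length. Coding sequences were aligned with biopython over the lowest-numbered transcript with a complete coding sequence. Scripts were tested on simulated data. Replicates differed by more than counting noise (chi-square per degree of freedom 10.9 to 32.7). p-values cover the spread between harvests of 1 line.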

Additional observations from a re-analysis of the deposited data

How the results depend on the processing

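The Ly6a log2 FC in T-bet + GATA3 versus GFP + GATA3 stayed between 3.16 and 3.48 with a library left out, was 3.09 on the log2(TPM + 1) scale, and was called in every edgeR and DESeq2 alternative. Against T-bet + Plum it was called by DESeq2 (log2 FC 1.57) and without the filter on low counts (1.58), where 1 member was called in each case instead of 0, and not in the other alternatives (1.36 to 1.82 with a library left out). Without the filter, 2 members were called against GFP + GATA3, the second being Ly6c2, whose FDR was 0.0597 to 0.448 in the other edgeR and DESeq2 alternatives. The cause of these differences was not tested. The labels do not say whether a replicate number marks a shared harvest day. The correlation of deviations between same-numbered libraries was 0.149 and -0.0455 in the 2 tested comparisons, and 0.059, 0.249 and 0.302 for T-bet alone, GATA3 alone and both against the control, so whether the numbers pair the libraries was not settled. With the replicate block the Ly6a log2 FCs were 3.37 (FDR 0.000131) and 1.57 (FDR 0.0641), and it changed no call of the 9 genes (14 interferon genes were called up against GFP + GATA3 instead of 13). Directions that turned belonged to genes not called: Ly6c1 against GFP + GATA3 (-0.19 to 0.80 with a library left out), Thy1 against GFP + GATA3 (-0.62 to 0.076) and Thy1 against T-bet + Plum (-0.49 to 0.20, with 0.17 without T-bet + Plum replicate 2). List counts, recomputed after seeing the data, were 2 to 3 genes up for other GPI-anchored proteins and 5 to 18 for the interferon list against GFP + GATA3, and without the filter 1 GPI-anchored gene was called down. I830127L07Rik kept its call except where at least 10 counts were required in every library, which removed it. Low counts limit Ly6c1 and Ly6c2, and leave Ly6d, Ly6g, Ly6i and Ly6k without a comparison.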
